A study of Mus musculus with 29 samples.

Results

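The uterus of CD-1 mice given genistein as newborns (GEN) was compared with that of control mice (CON) on gestation day 4.5 (GD4.5), using every array whose title carries that tissue, day and exposure. These were 8 of the 29 arrays of the series, 4 GEN and 4 CON. GEN pups had received genistein, an isoflavone of soy that binds estrogen receptors, at a daily dose of 50 mg/kg from postnatal day 1 to 5, and CON pups the corn oil vehicle over the same days. All animals were CD-1 females, and total RNA of the whole uterus was labelled with Cy3 and hybridised to 1-colour Agilent arrays, 1 sample per array. The series holds the same 2 exposures on GD1.5, GD3.5 and GD5.5, with 21 arrays in all. Its title names implantation failure, altered patterning of the uterus and endometrial glands after neonatal genistein, and GD4.5 falls close to the time of embryo attachment. The labels leave unsaid whether samples were of separate or pooled animals and whether embryos were present, so the p-values measure only the spread between samples. That spread was estimated within the groups of all 29 arrays, not from the 8 arrays of GD4.5 alone.

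In the mouse the blastocyst attaches to the luminal epithelium late on the fourth or early on the fifth day of pregnancy. Glands formed after birth secrete the factors that make the uterus receptive, progesterone and a short rise of estrogen set the epithelium to that state, and the stroma below then turns into decidua. In the mouse, gland formation takes place in the first weeks after birth and is known to be sensitive to estrogenic compounds at that time.

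Every value below is a log2 signal of a gene's brightest probe relative to the 75th percentile of its array, and a difference of 1 corresponds to a doubling of signal. Between 68.3 and 80.9% of the probes were well above background on the 8 arrays, and no array had over 2 saturated spots. Genes that mark the uterus were present on all 8: Hoxa10, a homeobox gene of the uterine segment, lay at 3.46 to 3.97 in GEN and 3.47 to 3.76 in CON, and Hoxa11, its neighbour in the same cluster, at 4.45 to 5.13 in GEN and 4.28 to 4.74 in CON. The muscle actin gene Acta2 lay at 7.62 to 8.23 in GEN and 8.11 to 8.25 in CON. The 8 arrays lay on 4 slides that share 1 scan date. GEN 1, GEN 4 and CON 1 shared a slide, as did GEN 2 and CON 3, and GEN 3 and CON 4, while CON 2 was the only GD4.5 array on its slide. All 4 CON arrays occupied position 1 of their slide and the GEN arrays positions 2 or 3, so that position on the slide and exposure cannot be told apart.

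GEN 4 stood apart from the other 7 arrays. Of 17365 genes well above background on all 8, it lay more than 1 log2 unit above every other array for 264 genes and more than 1 below for 112, where the others ranged from 10 to 34 and from 6 to 71. It was the highest or lowest array for 44.8% of these genes, against 15.8 to 31.0% for the others. Its correlation across genes was 0.949 to 0.960 with the other GEN arrays and 0.949 to 0.971 with the CON arrays. The counts of called genes and the list medians are therefore given with and without GEN 4, as are the differences of named genes that its removal moved across the threshold or by over 1.5 times.

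Between GEN and CON uteri, 26 of 21620 tested genes (0.12%) differed at an adjusted p under 0.05 (limma, with Benjamini-Hochberg adjustment). Of these 4 (0.0185%) were higher and 22 (0.102%) lower in GEN. Without GEN 4 the count was 66 (0.305%), with 8 (0.037%) higher and 58 (0.268%) lower in GEN. The larger set held 23 of the 26 genes called with all arrays. At an unadjusted p under 0.05 there were 2088 genes (9.66%), 530 (2.45%) higher and 1558 (7.21%) lower. Without GEN 4, the other 3 GEN arrays lay all above the 4 CON arrays in 3.07% of the tested genes and all below them in 5.23%. The count also depended on other single arrays: it was 89 without GEN 3, 62 without CON 2, 20 and 12 without GEN 2 and GEN 1, and 5, 5 and 4 without CON 1, CON 3 and CON 4. In 25 of the 26 genes the 4 GEN arrays did not overlap the 4 CON arrays. Over all tested genes the 4 GEN arrays lay above all CON arrays for 274 (1.27%) and below for 622 (2.88%). Of the 26 genes, 23 have an official symbol.

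**Figure D1:**
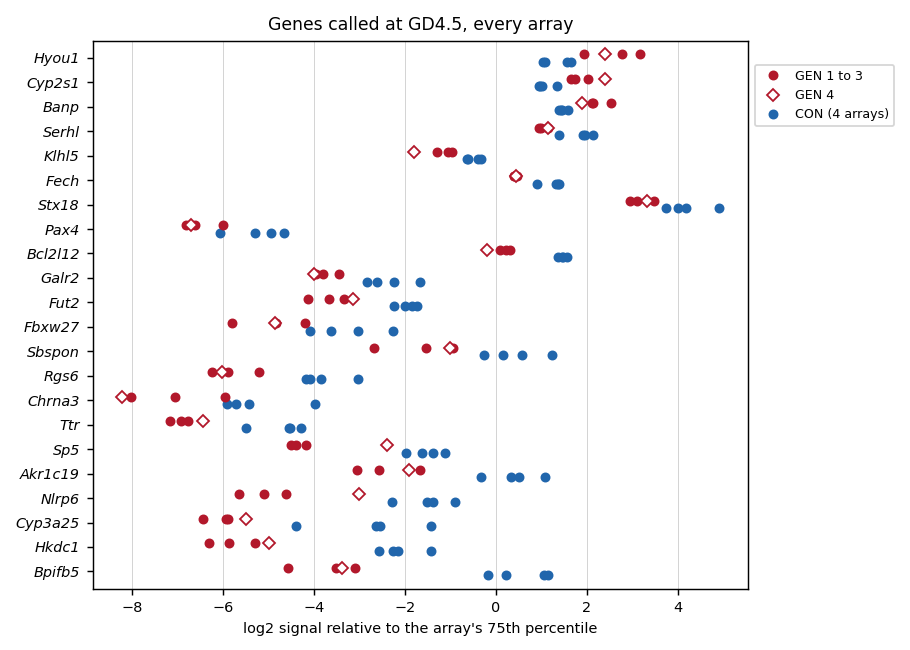
Each row is 1 of 22 genes called at GD4.5, sorted by the GEN to CON difference; the horizontal axis is the log2 signal relative to the 75th percentile of each array. Red circles are GEN 1 to 3, open diamonds GEN 4 and blue circles the 4 CON arrays; the groups are separate in every gene but Pax4, and GEN 4 is the GEN array nearest to CON in Hkdc1, Nlrp6 and Sp5.

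The called genes are described 1 by 1, since no list held more than 2 called lower. Bpifb5, which encodes a secreted lipid-binding protein of the BPI fold family (array probe at chr2:153979749-153981652, mouse build NCBI35, mm7), lay at -4.57, -3.52, -3.09 and -3.38 in GEN 1 to 4 and at 1.06, 1.14, 0.22 and -0.16 in CON 1 to 4. The groups were -4.21 apart (SE 0.78, adjusted p = 0.0261), an 18.5-fold lower signal in GEN. Without GEN 4 it was -4.29 (adjusted p = 0.0271). With slide as a block the difference was -4.17 and no longer passed (adjusted p = 0.0789). Nlrp6, an innate immune sensor known from gut epithelium, lay at -5.64, -4.60, -5.09 and -3.01 in GEN, against -0.89, -2.28, -1.38 and -1.51 in CON. Every GEN array was below every CON array, with GEN 4 nearest to CON. It fell by 3.07 with GEN 4 (SE 0.52, adjusted p = 0.0140) and by 3.60 without it (SE 0.49, adjusted p = 0.00106), and a second, dimmer probe gave -2.13. Fut2, the fucosyltransferase that makes the H antigen on epithelial glycans (probe at chr7:41825396-41825455, mm7), lay at -4.12, -3.66, -3.33 and -3.13 in GEN and at -1.72, -2.23, -1.85 and -2.01 in CON. The groups did not overlap, and the fall of 1.61 (SE 0.25, adjusted p = 0.00902) held without any 1 of the 8 arrays. Within slides it was -2.40 to -1.33. A dimmer second Fut2 probe gave -0.53 (unadjusted p = 0.151), and with the mean over both probes the gene was not called.

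Among metabolic enzymes, Hkdc1, a hexokinase family member of epithelial tissues (probe at chr10:61901912-61901971, mm7), had the smallest adjusted p of the comparison. It lay at -6.31, -5.88, -5.30 and -4.99 in GEN 1 to 4 and -2.56, -2.14, -2.26 and -1.43 in CON 1 to 4. No GEN array came within 2 log2 units of a CON array. The fall was 3.52 (SE 0.39, adjusted p = 0.000127), or 11.5-fold, and 3.73 without GEN 4 (SE 0.42, adjusted p = 0.000200). It was called without any 1 array and under all 11 other settings in which it was tested. Of 27 measured genes of hexokinases, glucose transport and glycolysis Hkdc1 alone was called with all arrays (0.12% of all tested genes were). The median difference of the 27 was -0.07, or 0.00 without GEN 4, against -0.04 or -0.01 over all tested genes. Akr1c19, an aldo-keto reductase, lay at -2.58, -3.05, -1.67 and -1.91 in GEN and 0.52, -0.34, 1.07 and 0.33 in CON, without overlap. It fell by 2.70 (SE 0.48, adjusted p = 0.0202), and its second probe gave -1.39. Cyp3a25, a cytochrome P450 of steroid and drug oxidation, was well above background on 2 GEN and 4 CON arrays. Its level was -6.43 to -5.49 in GEN and -4.39 to -1.43 in CON (difference -3.19, SE 0.60, adjusted p = 0.0282). Another P450 gene moved the other way. Cyp2s1, a P450 expressed mainly outside the liver, lay at 2.03, 1.74, 1.64 and 2.40 in GEN and 0.96, 1.33, 0.94 and 1.02 in CON. It rose by 0.89 (SE 0.16, adjusted p = 0.0261), with no overlap, and with slide as a block it had 0.88 (adjusted p = 0.0543). Over 33 measured P450 and related oxidation genes the median was 0.06 (-0.03 without GEN 4). Of these 1 was called higher (0.0185% of all tested genes) and 2 lower (0.102%).

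Sp5, a zinc finger gene that is a direct target of Wnt and beta-catenin signalling, lay at -4.50, -4.40, -4.18 and -2.40 in GEN and -1.38, -1.98, -1.63 and -1.12 in CON. GEN 4 lay well above the other GEN arrays and below every CON array. Sp5 fell by 2.34 with GEN 4 (SE 0.40, adjusted p = 0.0140) and by 2.83 without it (SE 0.34, adjusted p = 0.000389). Of 35 measured Wnt pathway genes Sp5 alone was called (0.12% of all tested genes were), and the list's median was -0.09, or 0.02 without GEN 4. Fzd10, a Wnt receptor gene, had 1.37 (SE 0.43, adjusted p = 0.247), with GEN 4 the highest array at 1.94, and 0.74 without GEN 4. Its second probe gave 0.62 (unadjusted p = 0.358).

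Promoter sequence is shown for the gene with the smallest adjusted p and for those whose promoter held a searched motif. Of 24 called genes looked up in RefSeq, 14 had a promoter entry (build GRCm38.p6, 250 bases upstream of the start, 5′ to 3′ on the strand of the gene). Both strands were searched for CTTTGAT, a core bound by TCF and LEF, the DNA-binding partners of beta-catenin, and matches are in capitals.
Hkdc1: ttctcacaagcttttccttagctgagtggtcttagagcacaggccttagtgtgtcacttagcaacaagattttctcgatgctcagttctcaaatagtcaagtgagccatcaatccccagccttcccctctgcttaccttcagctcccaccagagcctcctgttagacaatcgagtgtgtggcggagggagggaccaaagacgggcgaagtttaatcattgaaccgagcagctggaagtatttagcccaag
Bpifb5: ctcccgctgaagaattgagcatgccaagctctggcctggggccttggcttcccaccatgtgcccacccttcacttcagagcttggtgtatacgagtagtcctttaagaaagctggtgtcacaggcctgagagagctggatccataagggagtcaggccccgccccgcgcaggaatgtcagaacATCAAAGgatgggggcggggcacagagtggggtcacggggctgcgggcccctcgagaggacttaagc
Sp5: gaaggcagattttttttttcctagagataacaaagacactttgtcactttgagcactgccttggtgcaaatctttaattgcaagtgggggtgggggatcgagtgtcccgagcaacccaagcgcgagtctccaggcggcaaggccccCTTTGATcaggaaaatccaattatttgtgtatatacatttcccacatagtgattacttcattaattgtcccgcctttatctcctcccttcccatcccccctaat
These lie at chr10:62422458-62422707 (minus strand), chr2:154223492-154223741 (plus strand) and chr2:70474673-70474922 (plus strand). Relative to the start, the base of the match nearest to it lies at -98 in Sp5 and at -61 in Bpifb5, whose match is on the opposite strand. The motif occurs in 3.21% of 32851 promoters of this length and in 2 of the 14. The forkhead core TGTTTAC (3.17% of promoters), the estrogen response element, GGTCA and TGACC with 3 bases of any kind between them (0.0639%), and the endoplasmic reticulum stress element, CCAAT and CCACG with 9 bases between them (0.113%), none of which overlaps another, were in 0 of the 14. A match describes these letters in this window only.

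Ttr, which carries thyroid hormone and the retinol-binding protein and is known from endometrial glands, was not well above background on any GEN array and was so on 3 CON arrays. Its measured level was -7.15 to -6.43 in GEN and -5.49 to -4.28 in CON. The signal was at least 2.73-fold lower in GEN, a lower bound that sets the CON mean against the lowest detectable signal of the GEN arrays (adjusted p = 0.0353). Sbspon, which encodes a secreted matrix-type protein with a thrombospondin repeat, lay at -2.68 to -0.95 in GEN and -0.26 to 1.24 in CON and fell by 1.98 (SE 0.36, adjusted p = 0.0261). With slide as a block neither Ttr nor Sbspon passed (adjusted p = 0.0564 and 0.0544).

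Several signalling genes with dim probes were lower in GEN. Chrna3, a nicotinic acetylcholine receptor subunit, had -2.06 (SE 0.42, adjusted p = 0.0478) and lost its call without GEN 4 (-1.76, adjusted p = 0.0898), as did Galr2, a galanin receptor, with -1.46 (SE 0.30, adjusted p = 0.0475, and -1.40 with an adjusted p of 0.0732 without GEN 4). Rgs6, a regulator of G protein signalling, fell by 2.06 (adjusted p = 0.0282), and the F-box gene Fbxw27 by 1.67 (adjusted p = 0.0292). Pax4, a transcription factor known from pancreatic islets, lay at -6.81 to -6.0 in GEN and -6.07 to -4.65 in CON and fell by 1.29 (adjusted p = 0.0261). It was the only called gene whose groups overlapped, and it was well above background on 1 GEN and 3 CON arrays.

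Other genes called lower have varied roles in the cell. Bcl2l12, related to the Bcl-2 family, lay at 0.22, 0.09, 0.32 and -0.19 in GEN and 1.46, 1.56, 1.36 and 1.48 in CON. It fell by 1.35 (SE 0.24, adjusted p = 0.0166), and each CON array was over 1 log2 unit above each GEN array. Fech, ferrochelatase of the last step of heme synthesis, lay at 0.46, 0.39, 0.40 and 0.43 in GEN and 1.37, 0.90, 1.38 and 1.31 in CON (difference -0.82, SE 0.13, adjusted p = 0.0108). A second Fech probe gave 0.03, so the probes disagree. Serhl, a serine hydrolase-like gene, had -0.79 (SE 0.13, adjusted p = 0.0140) and likewise a second probe at -0.10. Klhl5, a kelch-like adaptor of ubiquitin ligases, fell by 0.79 (adjusted p = 0.0108), and Stx18, a syntaxin of the endoplasmic reticulum, by 1.0 (adjusted p = 0.0479).

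Of the 4 genes called higher, Banp, Cyp2s1 and Hyou1 are described. Banp, which encodes a nuclear protein that binds unmethylated CG-rich DNA (probe at chr8:120667863-120667922, mm7), lay at 2.52, 2.12, 2.13 and 1.90 in GEN and 1.58, 1.43, 1.45 and 1.39 in CON. It rose by 0.70 (SE 0.11, adjusted p = 0.00902), or 1.63-fold, and by 0.79 without GEN 4 (adjusted p = 0.00106). The CON arrays spanned 1.39 to 1.58, and the lowest GEN array, GEN 4, was above all of them. Hyou1, a chaperone of the endoplasmic reticulum, lay at 2.77, 3.16, 1.94 and 2.40 in GEN and 1.09, 1.56, 1.64 and 1.03 in CON. Its rise was 1.24 (SE 0.25, adjusted p = 0.0475), but a second, dim probe gave -0.78 and slide as a block gave an adjusted p of 0.0544. Under 12 other settings Hyou1 was called in 7. Of 29 endoplasmic reticulum chaperone and stress genes 25 were higher in GEN, where 9367 of all 21620 tested genes were (median 0.21, or 0.27 without GEN 4). Of the 29, 1, Hyou1, was called (0.12% of all tested genes were). By array the list lay at 0.44, 0.43, -0.05 and -0.02 in GEN and -0.21, 0.46, -0.21 and -0.09 in CON relative to the CON mean, so that CON 2 was the highest of the 8.

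Of the 22 genes described so far, 13 kept their call with slide as a fixed block and 9 lost it. Hkdc1 and Fut2 kept theirs without any 1 of the 8 arrays. Banp and Klhl5 lost it only without CON 4, and Bcl2l12, Fech and Serhl only without CON 1, CON 3 or CON 4. The other 15 lost it whichever of CON 1, CON 3, CON 4 and GEN 1 was left out.

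Without GEN 4, 43 further genes passed, and the largest fall among those named was that of Ltf. Ltf, lactoferrin, an iron-binding protein that estrogen induces in the mouse uterus, lay at -1.0, -2.47 and -1.58 in GEN 1 to 3, 6.82 in GEN 4 and 2.89, 2.02, 3.54 and 5.05 in CON 1 to 4. GEN 4 was the highest of the 8 arrays, and the other 3 GEN arrays were the lowest. The difference was -2.93 with GEN 4 (SE 1.35, adjusted p = 0.490) and -5.05 without it (SE 0.88, adjusted p = 0.0110). Pigr, the receptor that carries immunoglobulin A across epithelium, lay at -2.57, -1.38 and -2.35 in GEN 1 to 3, 2.38 in GEN 4 and 0.64, 0.64, 0.68 and 1.19 in CON. The same split was seen, and Pigr fell by 2.88 without GEN 4 (adjusted p = 0.00882), with -1.76 and an adjusted p of 0.402 with it. Fads2b, a fatty acid desaturase gene, fell by 3.28 without GEN 4 (adjusted p = 0.00106) and had -2.32 with it (adjusted p = 0.153). Ckmt1, mitochondrial creatine kinase, lay at -1.27 to -0.01 in GEN 1 to 3, 2.90 in GEN 4 and 1.16 to 2.30 in CON, and fell by 2.72 without GEN 4 (adjusted p = 0.00106), with -1.80 and an adjusted p of 0.256 with it. In these genes GEN 4 lay within or above the CON range.

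The same held for the carboxylesterase Ces1e (-2.67 without GEN 4, adjusted p = 0.0252), the sulfotransferase Sult1c2 (-2.54, adjusted p = 0.0478) and Ppp2r2c, a subunit of protein phosphatase 2A (-2.33, adjusted p = 0.0201). With all arrays these had -1.82 for Ces1e, -1.93 for Sult1c2 and -1.73 for Ppp2r2c. Pbld1 differed in this: its GEN 4 value of -2.79 was below the CON range of -2.18 to -1.90, and it had -2.18 with all arrays (adjusted p = 0.0610) and -2.66 without GEN 4 (adjusted p = 0.0104). Rises that passed only without GEN 4 were small. They were in Gng8, a G protein gamma subunit (0.69, adjusted p = 0.0133), Gls2, a glutaminase (0.69, adjusted p = 0.0252), and B3galt1, a galactosyltransferase (0.55, adjusted p = 0.0462). With all arrays Gng8 had 0.54, Gls2 0.51 and B3galt1 0.53 (adjusted p = 0.0505). Of the other B3galt1 probes 1 gave 0.81 and 1, above background on 6 arrays, -0.89, so the probes disagree.

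**Figure D2:**
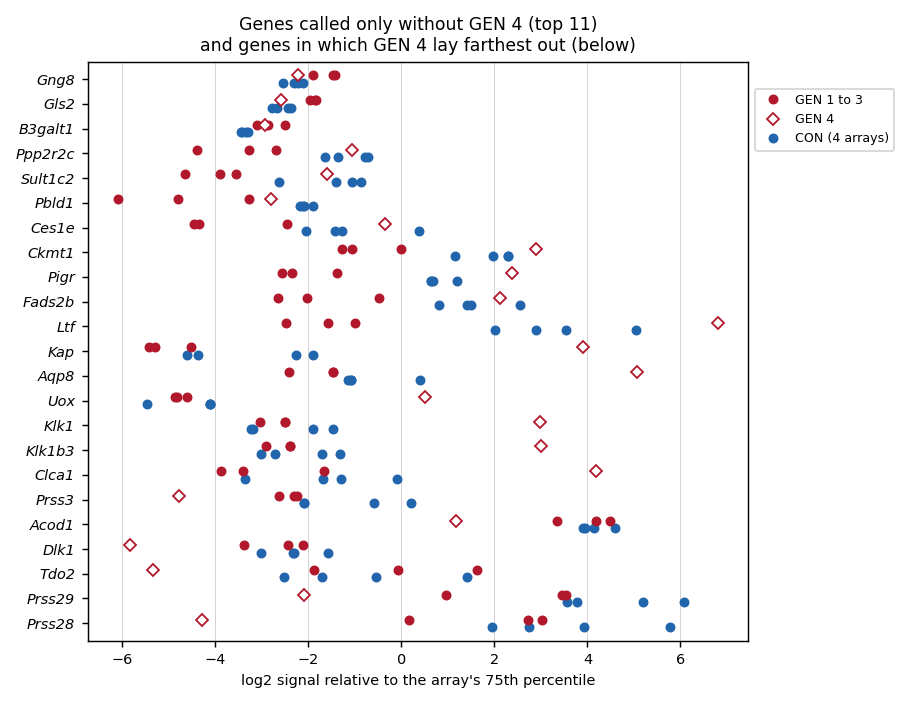
The upper 11 rows are the genes called only without GEN 4 that were chosen by size of change, and the lower 12 those in which GEN 4 lay farthest outside the other 7 arrays; the horizontal axis is the log2 signal relative to the 75th percentile of each array. Open diamonds (GEN 4) sit to the right of the other GEN arrays (red circles) in the 8 falling genes, and within or beyond the range of the CON arrays (blue circles) in each of these but Pbld1.

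The genes in which GEN 4 was farthest outside the other arrays fell into a high and a low set. High were Kap, the kidney androgen-regulated protein, at 3.90 in GEN 4, -4.51, -5.43 and -5.28 in GEN 1 to 3 and -4.60 to -1.90 in CON, and the water channel gene Aqp8, at 5.06 in GEN 4, -1.46, -1.46 and -2.40 in GEN 1 to 3 and -1.14 to 0.40 in CON. Clca1, a secreted regulator of chloride channels, was at 4.19 in GEN 4, -3.88 to -1.67 in GEN 1 to 3 and -3.36 to -0.10 in CON. The urate oxidase gene Uox and the kallikreins Klk1 and Klk1b3 were at 0.51, 2.99 and 3.01 in GEN 4. The kallikrein genes are near-identical copies whose probes may share signal. Low in GEN 4 were the implantation serine proteinase genes Prss28, at -4.27 in GEN 4, 3.02, 2.73 and 0.17 in GEN 1 to 3 and 1.94, 5.77, 2.75 and 3.92 in CON, and Prss29, at -2.08 in GEN 4, 3.55, 3.46 and 0.96 in GEN 1 to 3 and 3.55, 6.08, 3.78 and 5.20 in CON. Tdo2, a tryptophan-degrading enzyme of the decidua, lay at -5.34 in GEN 4, -0.07, 1.62 and -1.88 in GEN 1 to 3 and -1.71, 1.41, -2.51 and -0.54 in CON. Acod1, the itaconate-forming enzyme that progesterone induces in uterine epithelium, lay at 1.17 in GEN 4, 4.18, 3.34 and 4.48 in GEN 1 to 3 and 4.60, 4.15, 3.92 and 3.95 in CON. Dlk1, a membrane protein related to Notch ligands, was at -5.83 in GEN 4, and Prss3, a trypsin gene, at -4.78. None of these 12 genes was called with or without GEN 4, and without it the GEN to CON difference changed sign in Kap (0.45 with GEN 4, -1.79 without), Aqp8 (0.66 and -1.05), Uox (1.0 and -0.32), Klk1 (1.18 and -0.24), Klk1b3 (1.02 and -0.37), Clca1 (0.42 and -1.37) and Tdo2 (-0.58 and 0.73). It shrank in Prss28 (-3.18 and -1.62), Prss29 (-3.18 and -2.0), Acod1 (-0.86 and -0.15) and Dlk1 (-1.13 and -0.34). The 12 genes were chosen because GEN 4 lay farthest out in them, so such changes follow largely from the choice.

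Set beside the other days, these GEN 4 values were nearer to GD1.5 than those of the other GD4.5 arrays in several genes, though those days lay on other slides. Ltf averaged 7.0 ± 0.40 in GEN and 6.94 ± 0.25 in CON at GD1.5 (SD, n = 4 and 3), and Clca1 6.95 ± 0.67 in GEN and 7.28 ± 0.29 in CON. Tdo2 averaged -6.62 ± 0.88 in GEN and -5.88 ± 0.90 in CON on that day. GD1.5 was not the only day near GEN 4 in these genes. Tdo2 was likewise low in GEN at GD3.5 (-6.63, -6.11 and -5.82), and Clca1 reached 3.88 in GEN 3 at GD5.5. Areg, an EGF-like growth factor gene that progesterone induces in epithelium, lay at -7.95 in GEN 4, against -3.89 to -1.96 in GEN 1 to 3, and averaged -7.32 ± 1.47 in GEN and -7.42 ± 2.72 in CON at GD1.5. Aqp8, Kap, Klk1 and Klk1b3 were higher in GEN 4 than on any of the other 28 arrays. Over 16272 genes well above background on all 29 arrays, GEN 4 correlated at 0.972 with the mean of the GD4.5 CON arrays, 0.971 with that of the GD1.5 GEN arrays and 0.963 with that of the other GD4.5 GEN arrays. GEN 3 correlated at 0.986 with the GD4.5 CON mean and at 0.983 with that of the other GEN arrays, which include GEN 4. GEN 2 correlated best with the GD5.5 GEN mean (0.982) and CON 2 best with the GD4.5 GEN mean (0.984). Each array was left out of its own group's mean, which then held 3 arrays against 4 in the other GD4.5 group. The means are thus unlike, and small gaps between these correlations are not read as likeness. The correlations are descriptions across genes, which share an array and are not independent.

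**Figure D3:**
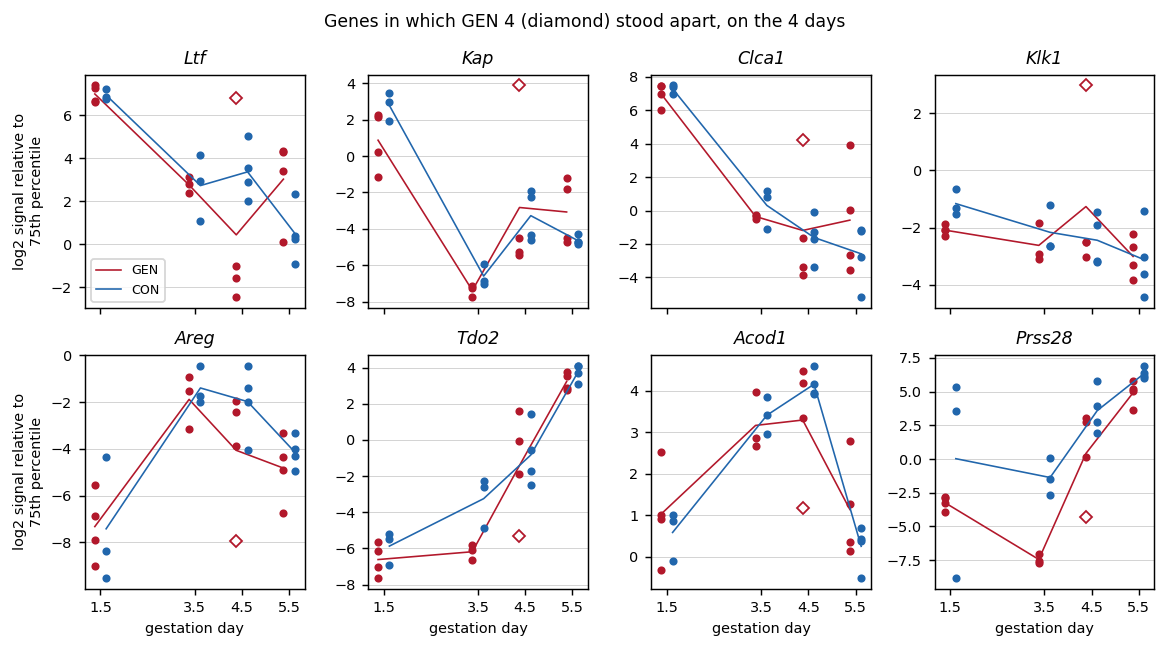
Each panel is 1 gene; the horizontal axis is the gestation day and the vertical axis the log2 signal relative to the 75th percentile. Points are single arrays of GEN (red, left of each day) and CON (blue, right), lines join the group means, and the open diamond is GD4.5 GEN 4, which lies above every other GD4.5 array in the upper 4 genes and below in the lower 4.

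Gland markers were lower in GEN than in CON across almost the whole list. Of 14 measured genes 13 were lower, where 12253 of all 21620 tested genes were, with a median of -1.69 (-1.74 without GEN 4) against -0.04 (-0.01) over all tested genes. In 8 the GEN arrays were all below the CON arrays (2.88% of all tested genes were), and Ttr was called lower (0.102% of all). Ttr was well above background on CON arrays alone and entered the test only through them, so its call is no support for the list. The list was chosen with earlier results of these data known, so these counts are descriptions. By array the list lay at -1.86, -1.76, -1.48 and -0.80 in GEN and -0.11, -0.35, 0.09 and 0.12 in CON relative to the CON mean, so every GEN array was below every CON array. Foxa2, the transcription factor required for endometrial glands, lay at -0.89, -1.49, -0.42 and -0.07 in GEN and 1.26, 0.72, 1.13 and 1.05 in CON. It had -1.76 with all arrays (SE 0.38, adjusted p = 0.0570) and fell by 1.97 without GEN 4 (adjusted p = 0.0286). Aldh1a1, which makes retinoic acid, had -1.24 (adjusted p = 0.138) and fell by 1.51 without GEN 4 (adjusted p = 0.0462). Wfdc3, a whey acidic protein-type inhibitor gene, had -2.46 (adjusted p = 0.0505) and the ETS factor gene Spdef -1.63 (adjusted p = 0.0852), both with no overlap. A second, dimmer Wfdc3 probe gave -0.44 (unadjusted p = 0.173). In whole uterus, fewer cells of a type and less RNA per cell cannot be told apart.

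Markers of simple epithelium at large were lower in GEN by less, and GEN 4 lay above the other arrays. Of 15 genes 14 were lower, where 12253 of all 21620 tested genes were, and the median was -0.44, or -0.65 without GEN 4. Of these 0 were called (0.12% of all tested genes were) and 0 were without overlap (1.27% of all above and 2.88% below). The list lay at -0.65, -1.37, -0.21 and 0.49 in GEN and -0.11, -0.34, 0.33 and 0.08 in CON. Krt18, a keratin of simple epithelium, lay at 5.55, 4.79, 6.13 and 6.61 in GEN and 6.10, 6.0, 6.60 and 6.40 in CON, and Cdh1, E-cadherin of epithelial junctions, at -1.58, -2.23, 0.82 and 1.34 in GEN and 0.55, 1.23, 1.10 and 1.57 in CON. Krt18 had -0.50 with all arrays (adjusted p = 0.539) and -0.78 without GEN 4 (adjusted p = 0.160). In both genes GEN 2 was lowest, and GEN 4 lay at the level of the higher CON arrays. These markers varied between arrays along with the genes called only without GEN 4, and their part in those differences was not tested. Muc1, a mucin of the luminal surface, had -1.65 (SE 0.38, adjusted p = 0.0728) and fell by 1.93 without GEN 4 (adjusted p = 0.0259), with no overlap and a second probe at -1.83.

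Secreted defence proteins had a median of -0.53 over 21 genes and -0.86 without GEN 4. The list lay at -0.96, -0.99, -1.20 and 0.56 in GEN and -0.02, -0.30, -0.31 and 0.45 in CON. Bpifb5 was the only member called with all arrays (0.12% of all tested genes were). Bpifb1, another BPI fold protein gene, had -1.90 (adjusted p = 0.0933), and Slpi, a secreted leukocyte protease inhibitor, 1.02 (adjusted p = 0.321), each with no overlap between the groups. A second Slpi probe gave -0.70 (unadjusted p = 0.249). Estrogen response genes lay at -0.48, -0.46, -0.21 and 0.70 in GEN and -0.12, -0.12, -0.02 and 0.05 in CON, with GEN 4 above all other arrays and GEN 1 to 3 below them. Their median was -0.04, or -0.46 without GEN 4.

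Mesothelial genes, which mark the serosal covering of the uterus, were higher in GEN. All 8 measured genes had a positive difference, as did 9367 of all 21620 tested genes. In 4 of the 8 every GEN array was above every CON array (1.27% of all tested genes were so). The list's median was 0.76 (0.81 without GEN 4, with 7 of 8 positive), and 0 were called (0.12% of all tested genes). The list lay at 1.17, 0.74, 0.40 and 0.68 in GEN and -0.09, 0.20, 0.06 and -0.21 in CON. Msln, mesothelin, lay at 3.26, 2.68, 2.56 and 2.55 in GEN and 1.54, 1.92, 1.66 and 1.34 in CON (difference 1.15, SE 0.29, adjusted p = 0.110). Bnc1, a zinc finger gene of mesothelium, had 1.35 (adjusted p = 0.144), Gpm6a 0.76 and the uroplakin gene Upk3b 0.76. Stroma and extracellular matrix genes had a median of 0.22 (0.17 without GEN 4), against -0.04 (-0.01) over all tested genes. Of 25, 20 were higher (9367 of all 21620 tested genes were), 4 had every GEN array above every CON array (1.27% of all tested genes) and 0 were called higher (0.0185% of all). Fn1, fibronectin, lay at 2.76, 2.94, 3.36 and 2.95 in GEN and 2.67, 2.25, 2.34 and 2.15 in CON and had 0.65 (SE 0.19, adjusted p = 0.219). Its dimmer probes gave 0.60 and 0.32. Vegfc, a growth factor of lymphatic vessels, lay at 0.79, 0.88, 1.0 and 1.01 in GEN and 0.52, 0.65, 0.42 and 0.42 in CON (difference 0.42, adjusted p = 0.170), also without overlap.

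**Figure D4:**
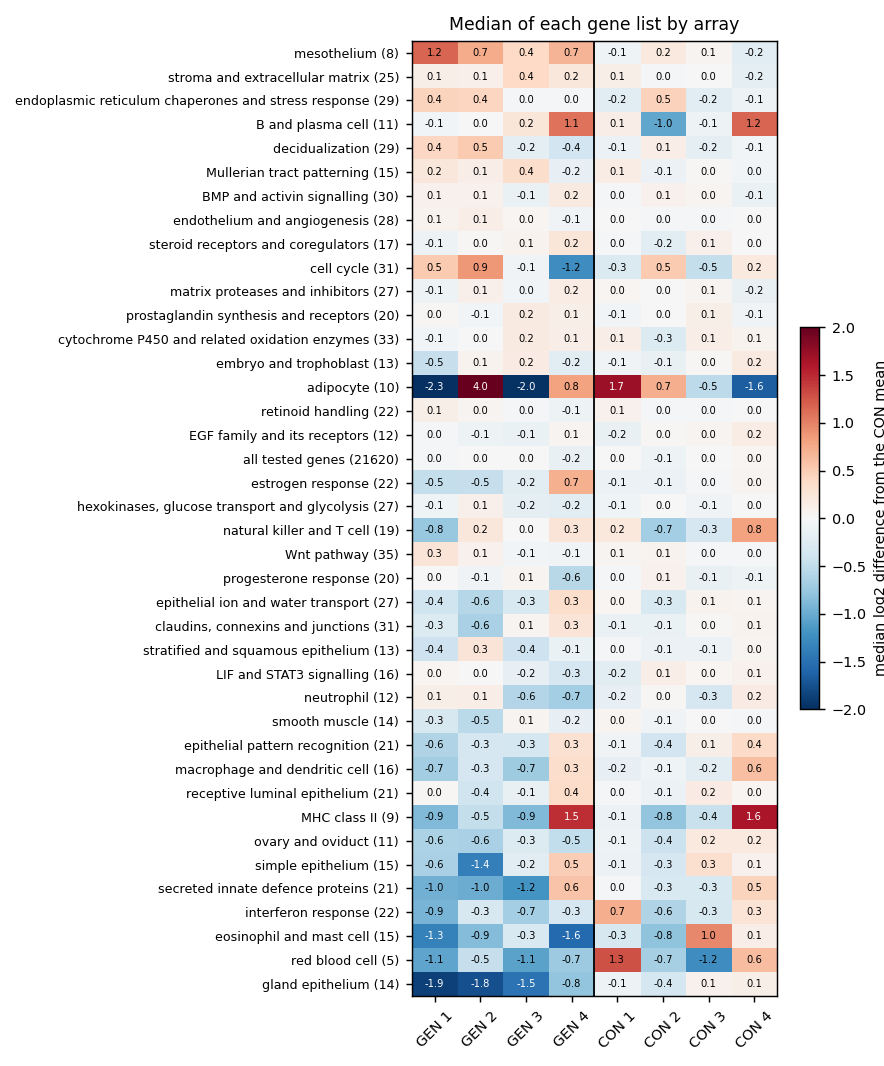
Rows are 39 gene lists and all tested genes, sorted by the median GEN to CON difference, with the number of measured genes in brackets; columns are the 4 GEN arrays and, right of the line, the 4 CON arrays. Each cell is the median over the list of the log2 difference from the CON mean; gland epithelium lies lower in each of the 4 GEN arrays than in any CON array, and adipocyte genes span -2.30 to 4.02 among the GEN arrays.

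No gene of the interferon, mast cell, macrophage, neutrophil, lymphocyte or MHC class II lists was called with all arrays (0.12% of all tested genes were). Of 22 interferon response genes 21 were lower in GEN, where 12253 of all 21620 tested genes were (median -0.59, or -0.67 without GEN 4). The list lay at -0.93, -0.33, -0.68 and -0.33 in GEN and 0.73, -0.59, -0.32 and 0.28 in CON. CON 2 lay within the range of the GEN arrays and CON 3 just above it. Oas1a, an antiviral synthetase, lay at 0.92, 1.30, 0.95 and 0.88 in GEN and 2.53, 1.55, 1.56 and 2.05 in CON and had -0.91 (adjusted p = 0.428). Irf7, a transcription factor of that response, had -1.34 (adjusted p = 0.351). Of 15 eosinophil and mast cell genes 14 were lower, again beside 12253 of all 21620 (median -0.78, or -0.62 without GEN 4). The list lay at -1.35, -0.86, -0.30 and -1.56 in GEN and -0.32, -0.81, 0.97 and 0.13 in CON. Mcpt4, a mast cell protease, lay at -4.72 to -0.54 in GEN and -1.16 to 1.12 in CON and had -2.30 (adjusted p = 0.304). MHC class II genes stood highest in GEN 4 and CON 4, at -0.88, -0.48, -0.88 and 1.48 in GEN and -0.12, -0.80, -0.44 and 1.63 in CON, and B and plasma cell genes did likewise, at -0.06, 0.01, 0.24 and 1.09 in GEN and 0.14, -1.04, -0.10 and 1.16 in CON. The median difference was -0.33 for MHC class II genes (-1.03 without GEN 4) and 0.19 for B and plasma cell genes (0.03). Adipocyte genes ranged widely in both groups, at -2.30, 4.02, -1.98 and 0.81 in GEN and 1.71, 0.73, -0.52 and -1.65 in CON (median 0.01, or -0.31 without GEN 4). Their part in the called genes was not tested.

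Of the hormone and attachment genes given next, 0 passed the test with or without GEN 4. Those of the epithelium were Ihh, the hedgehog ligand that progesterone induces, at 0.45, -0.15, 0.47 and -1.77 in GEN and 0.20, 1.08, 0.29 and 0.56 in CON (difference -0.78, SE 0.53, adjusted p = 0.702), and Areg, at -1.96, -2.43, -3.89 and -7.95 in GEN and -1.99, -0.47, -4.05 and -1.39 in CON (-2.08, SE 1.16, adjusted p = 0.609). In both GEN 4 was the lowest array, and without it Ihh had -0.28 and Areg -0.79. Msx1, a homeobox gene of the receptive epithelium, had -0.87 (SE 0.43, adjusted p = 0.536), or -1.31 without GEN 4, and Hbegf, the EGF-like ligand expressed where the embryo attaches, 0.22 (SE 0.29, adjusted p = 0.882). Ptgs2, a prostaglandin synthase of the attachment site, had 1.41 (SE 0.79, adjusted p = 0.610), with GEN 4 at -0.68 and the other GEN arrays at -4.86 to -4.17, against -5.54 to -4.54 in CON. Without GEN 4 it had 0.46.

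In the stroma, Bmp2, a ligand required for decidualization, lay at -1.48, -0.42, -3.88 and -3.22 in GEN and -3.37, -1.74, -3.13 and -2.96 in CON (0.55, SE 0.54, adjusted p = 0.832), and Wnt4, which acts below it, at 0.52, 0.73, -1.50 and -1.53 in GEN and -1.31, -0.37, -1.59 and -1.95 in CON (0.86, SE 0.45, adjusted p = 0.569). GEN 1 and GEN 2 were high and GEN 3 and GEN 4 low in both genes, and CON 2 was the highest CON array. Without GEN 4, Bmp2 had 0.87 and Wnt4 1.22. Hand2, which limits growth factor signalling to the epithelium, had 0.16 (SE 0.31, or 0.51 without GEN 4), Hoxa10 0.16 (SE 0.12, or 0.27), the progesterone receptor gene Pgr 0.17 (SE 0.18, or 0.31) and the estrogen receptor gene Esr1 0.23 (SE 0.17, or 0.11). Igfbp1, an insulin-like growth factor binding protein of the decidua, had 1.85 (SE 0.70, adjusted p = 0.348). The decidualization list had a median of 0.16 (0.24 without GEN 4) over 29 genes, with 0 called (0.12% of all tested genes were). It lay at 0.41, 0.52, -0.20 and -0.39 in GEN and -0.12, 0.13, -0.18 and -0.06 in CON. Cell cycle genes followed a like order of arrays, at 0.53, 0.87, -0.06 and -1.24 in GEN and -0.29, 0.53, -0.48 and 0.19 in CON (median 0.08, or 0.46 without GEN 4). In both lists the spread within GEN was larger than the difference between the groups, and the number of arrays limits what can be shown.

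The genes called at GD4.5 were followed in the arrays of the other days, which share no sample with GD4.5. Of the genes called lower, the difference had the same sign in 17 of 19 measured at GD1.5, 18 of 20 at GD3.5 and 14 of 18 at GD5.5. Among genes that were lower but not called the shares were 53.4%, 61.9% and 47.4%. Called genes are larger differences by construction, so these shares are descriptions. Hkdc1 had -1.93 at GD1.5, -1.34 at GD3.5, -3.52 at GD4.5 and -1.79 at GD5.5, and passed at GD4.5 alone (adjusted p = 0.0880, 0.456 and 0.175 on the other days in order). Its GD3.5 mean was -5.27 ± 0.21 in GEN and -3.92 ± 0.64 in CON (SD, n = 3 each), and its GD4.5 mean -5.62 ± 0.59 in GEN and -2.10 ± 0.48 in CON (SD, n = 4 each), on different slides. Ttr was also called lower at GD1.5 and GD3.5, where 0 GEN arrays were well above background. It entered those tests only through CON arrays, so these calls are no support for a lasting fall, and no fold is given. Fut2 had -0.03 at GD1.5 and -1.38 at GD3.5 (adjusted p = 0.0526).

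**Figure D5:**
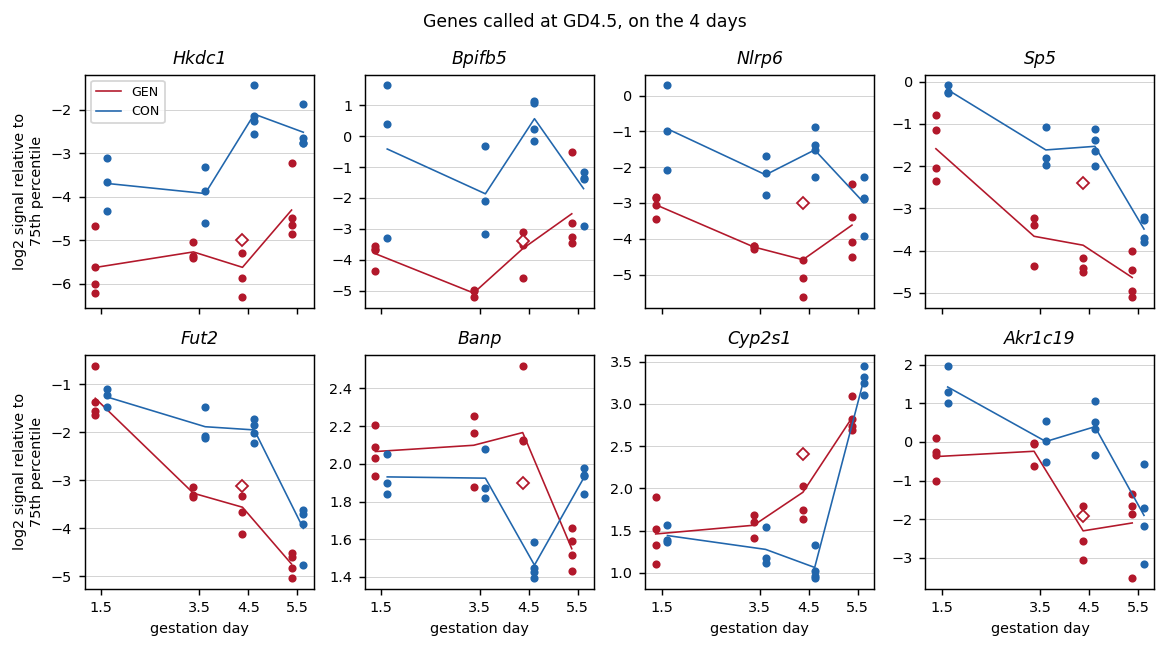
Each panel is 1 gene called at GD4.5; the horizontal axis is the gestation day and the vertical axis the log2 signal relative to the 75th percentile. Points are single arrays of GEN (red, left of each day) and CON (blue, right), lines join the group means and the open diamond is GD4.5 GEN 4; Banp and Cyp2s1 change sides between GD4.5 and GD5.5.

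The exposure difference itself was tested between days. Of 22549 genes, 1 (0.00443%) differed between GD4.5 and GD5.5, whose arrays lay on the same 4 slides (1679 at an unadjusted p under 0.05). This was Banp, which had 0.70 at GD4.5 and -0.37 at GD5.5, a change of 1.08 (SE 0.16, adjusted p = 0.0119). At GD4.5 it lay at 1.90 to 2.52 in GEN and 1.39 to 1.58 in CON, and at GD5.5 at 1.43 to 1.66 in GEN and 1.84 to 1.98 in CON. With slide as a fixed block 0 genes passed. Cyp2s1 had a change of 1.34 (adjusted p = 0.0573) and Fech -1.11 (adjusted p = 0.0573). Without GEN 4, Ltf also differed between these days (-7.57, adjusted p = 0.0299). Between GD4.5 and GD3.5, 0 of 22557 genes (0%) passed with limma, 1083 at an unadjusted p under 0.05. Without GEN 4 there were 4, among them Fads2b (-3.75, adjusted p = 0.0374), and trend and robust variance fitting gave 2.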

How the data were processed

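Per the file headers and the submitters' processing notes, each deposited scanner file holds the processed green intensity of every spot, extracted with Agilent Feature Extraction 9.5 and annotated on mouse build NCBI35 (mm7); the software's background correction is part of these intensity values. The deposited series table holds the same intensity values and was not used further, with 0 of its columns left unassigned. Exposure, day and replicate number came from the sample titles.

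Here each array's intensity was taken to log2 and lowered by its 75th percentile over 43379 spots that are no controls. Spots marked as non-uniform or outlying were set to missing, repeated spots of a probe were averaged, and the brightest probe over all arrays stood for a gene. Names came from RefSeq through accession, symbol or synonym. Group means of all 29 arrays were fitted with limma 3.58.1 (R 4.3.3), which gave 22.9 degrees of freedom and a median standard error of 0.219 for a GEN to CON difference at GD4.5. Genes well above background on at least 3 of the 8 GD4.5 arrays were tested, with Benjamini-Hochberg adjustment and a threshold of 0.05. The fit was tested on simulated data with independent normal noise. Those data held no outlying array, slide effect or correlation between genes, so the test does not cover these. Figures were drawn with matplotlib 3.10.9.

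The genes named are those called that have official symbols, the largest changes called only without GEN 4, a set of attachment genes, up to 4 members of each list by smallest p, the 6 highest and 6 lowest of GEN 4, and called genes whose difference varied most between days. 1 called gene is not reported here. The members, the 39 lists and the genes were chosen with earlier results of these data known. Lists are described by counts and medians, without a test. A fold is a lower bound where every array of the dimmer group had the probe near background. Alternatives were normexp (offset 50), quantile normalization, the median in place of the 75th percentile, stricter and no filters on dim probes, the mean over probes, the replicate number or the slide as a block, slide also as a random effect, the 8 GD4.5 arrays alone, array weights, a variance trend with robust fit, and leaving out each array. The number of arrays limits the precision of each value.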

Additional observations from a re-analysis of the deposited data

Results flagged for a closer look

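In 276 groups of 4 arrays (99 named genes and 39 lists), 21 held an array whose gap to its nearest neighbour, as a share of the group's range, was over the critical value of Dixon's test; chance gives about 1 in 20. GEN 4 was the array apart in 13 of the 21, but Kap, Aqp8, Uox, Klk1, Klk1b3 and Prss3 were named because GEN 4 lay farthest out in them, and Ltf because it was called only without GEN 4, so this count is not read against chance. It was high in Sp5 (share 0.847, level -2.40), Ltf (0.841, 6.82), Kap (0.901, 3.90), Aqp8 (0.874, 5.06) and Uox (0.952, 0.51). It was also high in the kallikreins Klk1 (0.909) and Klk1b3 (0.912), in Ptgs2 (0.834), in Elf5, an ETS factor gene of epithelium and trophoblast (0.854, -3.18, against -5.36 to -5.04 in the other GEN arrays), and in Aldoc, aldolase C of glycolysis (0.83, -0.44, against -3.02 to -2.58). Pou2af1, a coactivator of B cells, lay at 0.75 in GEN 4 and -2.18 to -2.10 in the other GEN arrays (0.971). The list of secreted innate defence proteins was high in GEN 4 (0.863), and Prss3 was low (0.848). Without GEN 4, Elf5 fell by 2.20 (limma, adjusted p = 0.0318) and Aldoc by 2.01 (adjusted p = 0.00458). With all arrays neither was called, and Aldoc had -1.44, with a second probe at -0.90. With 1 of the 8 arrays left out Elf5 ranged from -2.20 to -1.32. Under 12 other settings Elf5 was called in 1 and Aldoc in 0.

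CON 2 was apart among the CON arrays in 6. It was low in Fech (0.862, 1.37, 0.90, 1.38 and 1.31 in CON 1 to 4), Uox (0.994) and Jchain, the joining chain of secreted immunoglobulins (0.92, 2.64, -0.32, 2.61 and 2.87), and in the lists of cytochrome P450 genes (0.836) and epithelial ion and water transport (0.915). It was high in Aqp8 (0.964). CON 4 was high in Pigr (0.928, 0.64, 0.64, 0.68 and 1.19), and GEN 2 in Oas1a (0.835, 0.92, 1.30, 0.95 and 0.88 in GEN 1 to 4).

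The exposure difference of Banp changed between GD4.5 and GD5.5 by 1.08 (SE 0.16, limma, adjusted p = 0.0119), with all 4 GEN arrays above all 4 CON arrays at GD4.5 and all 4 below at GD5.5.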

How the results depend on the processing

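The count of 26 called genes (4 higher, 22 lower in GEN) was 14 (1 and 13) with normexp background correction, 50 (12 and 38) with quantile normalization, 50 (7 and 43) with slide as a random block, 7 (1 and 6) with the 8 GD4.5 arrays alone, 49 (7 and 42) with array weights and 47 (7 and 40) with the variance trend. The mean over probes gave 2 higher, and the median in place of the 75th percentile 14 lower. Of the 26, the number still called was 10 with normexp, 24 with quantile normalization, 4 with the 8 arrays alone and 16 with slide as a fixed block. Same-numbered GEN and CON arrays deviated from their group means with correlations of -0.10, 0.45, 0.09 and 0.08, so the numbers were not taken to pair samples. With the replicate block 95 genes were called (14 higher and 81 lower), all 26 among them. Leaving out 1 GD4.5 array gave 4 to 89 called genes (1 to 12 higher, 3 to 77 lower), and leaving out 1 array of another day 21 to 53. The single gene that differed between GD4.5 and GD5.5 became 61 with normexp, 4 with quantile normalization, 3 with the variance trend, 2 without GEN 4 and 0 with the median or with slide as a fixed block. Against GD3.5 the 0 became 1 with quantile normalization, 2 with the variance trend and 4 without GEN 4. The cause was not tested in any of these.

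The genes whose difference changed sign were not among those called with all arrays. With array weights Kap had -0.82, Clca1 -0.97 and Tdo2 0.66, and Clca1 had -0.12 with slide as a fixed block. With 1 of the 8 arrays left out, the ranges were -1.79 to 1.32 for Kap, -1.37 to 1.32 for Clca1, -1.59 to 0.73 for Tdo2, -1.05 to 1.44 for Aqp8, -0.32 to 1.48 for Uox, -0.24 to 1.77 for Klk1 and -0.37 to 1.60 for Klk1b3, each reversed without GEN 4, and Clca1 and Tdo2 also without CON 2. They were -0.060 to 1.09 for Bmp2, reversed without GEN 2, and -0.10 to 0.51 for Hand2, reversed without GEN 1 or GEN 2. The genes reversed without GEN 4 were named because it lay farthest out in them, so their reversal follows largely from that choice. No other named gene changed sign under these alternatives. Dim probes such as those of Chrna3, Pax4 and Ttr lie near background, where intensity limits the precision.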
